A study of Mus musculus with 2 samples.

Results

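Tcf7, Lef1, Ccr7, Il7r, S1pr1 and Klf2 are 6 genes of T cells that recirculate between blood and lymphoid organs, and they were followed through single-cell RNA sequencing of J558 allografts. They were taken by symbol from the feature list of the matrices, which holds 32285 genes, and all 6 were found in both libraries. J558 is a mouse plasmacytoma line, that is, a single line of malignant antibody-secreting B-lineage cells. It was grown under the skin of the right flank of female BALB/c mice with an intact immune system. The mice received 0.5% methylcellulose (vehicle) or TAK-931, an inhibitor of the replication kinase CDC7, at 60 mg/kg by mouth once daily, and tumours were dissociated on day 6. An age of 4 weeks is given for the BALB/c mice, without separating the experiments. There was 1 library from each group, so no spread between animals could be measured and no test was made. Every interval below is a 95% interval that covers counting error only, and a difference between the treatments is a difference between 2 libraries.

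The vehicle library held 4565 barcodes with a median of 34151 unique molecular identifiers (UMIs, tags that count single captured transcripts), and the TAK-931 library 6558 barcodes with a median of 8156 UMIs. Only 8 barcodes occurred in both libraries (0.175% of the vehicle and 0.122% of the TAK-931 barcodes). After barcodes of 500 genes or fewer, or with 15% or more mitochondrial UMIs, had been set aside, 4163 vehicle and 4635 TAK-931 barcodes remained and were clustered without the 6 genes. Cells labelled as B lymphocytes of the J558 line were found by their immunoglobulin and tumour markers in 3388 of those vehicle barcodes but in only 146 of those TAK-931 barcodes. Doublets were not removed by a caller. Barcodes with a marker of another lineage were counted instead, and removed in an alternative.

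Naive and central memory T cells carry a transcription programme that keeps them long-lived and on the move. TCF-1 and LEF-1, the products of Tcf7 and Lef1, are DNA-binding factors of the Wnt pathway that maintain the naive and stem-like memory states, and KLF2 is the zinc-finger factor that switches on trafficking receptors, S1pr1 among them. CCR7 guides T cells and mature dendritic cells towards CCL19 and CCL21 in lymph nodes, S1PR1 senses sphingosine 1-phosphate and lets lymphocytes leave tissue, and the IL-7 receptor alpha chain carries the survival signal of IL-7. Effector and exhausted T cells usually hold less of these transcripts.

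All 6 genes are annotated as protein-coding on GRCm38 (GENCODE M21). Tcf7 (ENSMUSG00000000782) lies at chr11:52252371-52283014 on the minus strand, Lef1 (ENSMUSG00000027985) at chr3:131110471-131224356 on the plus strand, and Klf2 (ENSMUSG00000055148) at chr8:72319033-72321656 on the plus strand. Ccr7 (ENSMUSG00000037944) lies at chr11:99144196-99155077, Il7r (ENSMUSG00000003882) at chr15:9505788-9530176 and S1pr1 (ENSMUSG00000045092) at chr3:115710433-115715072, all on the minus strand.

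Because the members were compared together, the 250 bases before the RefSeq starts of the members were searched on both strands for 4 motifs (RefSeq windows, GRCm38.p6). There were 8 such windows for Tcf7 (2), Lef1 (4), Il7r (1) and Klf2 (1). The KLF core CACCC was found in 7 of the 8 windows, in all but that of Il7r, and in 52.0% of all 32851 windows. A pair of the Lef1 windows share 224 of their 250 bases and the same matches, so that they are not separate, and by gene the match was in 3 of 4. The TCF/LEF core CTTTGA was found in 1 of the 8 windows, a Lef1 start inside the gene, and in 13.8% of all windows. The FOXO motif TGTTTAC (3.17% of all windows) and the NF-kB motif (3.90%) were in none of the 8. The window with the most kinds of match and the window with none are given 5′ to 3′, with the matched letters in capitals, and no match in them overlaps another. The Lef1 window (chr3:131156044-131156293, plus strand) holds CTTTGA at 2 places and CACCC at 1 place, all on the opposite strand, and the Il7r window is chr15:9529877-9530126 on the minus strand.

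Lef1: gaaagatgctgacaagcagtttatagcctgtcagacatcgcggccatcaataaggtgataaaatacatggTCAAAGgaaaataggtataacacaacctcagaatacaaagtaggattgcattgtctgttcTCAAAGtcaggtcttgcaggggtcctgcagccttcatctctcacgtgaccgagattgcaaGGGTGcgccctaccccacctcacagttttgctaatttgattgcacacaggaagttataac
Il7r: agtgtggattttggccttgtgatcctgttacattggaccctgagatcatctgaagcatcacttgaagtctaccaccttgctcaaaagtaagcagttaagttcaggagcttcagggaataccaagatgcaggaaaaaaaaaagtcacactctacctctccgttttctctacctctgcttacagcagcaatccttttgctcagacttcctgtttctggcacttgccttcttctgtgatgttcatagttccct

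These matches describe letters in a window and no binding was measured.

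The level of each gene was first compared between cell classes, as CPM (the UMIs of the gene summed over the barcodes of the class and scaled to the same total). Each class carries the ending -like because it was named from marker genes of its cluster, and classes of at least 20 barcodes were compared, 11 in the TAK-931 and 9 in the vehicle library. None of the 6 genes was found in T cells alone. The 2 Wnt pathway factors were nearest to it. Tcf7 was at 31.3 CPM (28.6 to 34.1) in T-like and 26.4 CPM (19.7 to 34.7) in NK-like barcodes of the TAK-931 library, levels that were not told apart, and at no more than 4.78 CPM in any other class. Vehicle barcodes held it at 46.8 CPM (27.7 to 73.9) in T-like and 30.9 CPM (12.4 to 63.6) in NK-like barcodes. Lef1 had the same 2 classes at the top, with 54.7 CPM (51.2 to 58.4) in T-like and 53.3 CPM (43.5 to 64.7) in NK-like barcodes of the TAK-931 library, and 31.2 and 26.5 CPM in those of the vehicle library. Both neighbours overlapped in both libraries. No Lef1 UMI was found in J558-like barcodes of either library.

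Ccr7 was highest in dendritic-like barcodes. It stood at 275 CPM (255 to 296) in TAK-931 dendritic-like barcodes and at 483 CPM (423 to 549) in those of the vehicle library. In the TAK-931 library B-like barcodes followed at 204 CPM (155 to 263), which was not told apart from the dendritic-like level, and T-like barcodes at 81.0 CPM (76.7 to 85.4), below both. Vehicle T-like barcodes held Ccr7 at 62.4 CPM (39.96 to 92.8). Some smaller levels came from single barcodes: all 54 Ccr7 UMIs of the 72 mural-like TAK-931 barcodes were in 1 barcode, as were all 8 of the neutrophil-like ones.

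Il7r was highest outside the T cells in the TAK-931 library. Plasmacytoid dendritic-like barcodes, the producers of type I interferon, held 453 CPM (411 to 499), and 91.2% of these 68 barcodes had an Il7r UMI (35.3% when each barcode was cut to 1000 UMIs). A Cd3 UMI was found in 13 of these 68 barcodes, and the part of T cell RNA in this level was not tested. T-like barcodes followed at 85.1 CPM (80.7 to 89.6), a level not told apart from 76.0 CPM (65.6 to 87.6) in dendritic-like barcodes, and monocyte/macrophage-like barcodes held 45.6 CPM (43.4 to 47.9). In the vehicle library T-like barcodes led with 161 CPM (124 to 207), the interval overlapping that of dendritic-like barcodes at 94.1 CPM (68.9 to 126). The vehicle library held only 10 plasmacytoid dendritic-like barcodes, too few for the comparison, and their Il7r level was 668 CPM (482 to 903).

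S1pr1 was foremost an endothelial transcript. It was at 350 CPM (334 to 367) in endothelial-like barcodes of the TAK-931 library and at 332 CPM (306 to 359) in those of the vehicle library, and a UMI was found in 89.2% and 89.4% of them. B-like barcodes of the TAK-931 library came next at 245 CPM (192 to 310) and mural-like barcodes at 83.6 CPM (72.1 to 96.5), above the T-like level of 60.6 CPM (56.9 to 64.4). In the vehicle library the T-like level was 109 CPM (78.7 to 148), second to endothelial-like barcodes. Klf2 was the most widely found of the 6. It was at 809 CPM (708 to 919) in B-like, 541 CPM (445 to 652) in neutrophil-like, 365 CPM (339 to 393) in NK-like and 330 CPM (314 to 346) in endothelial-like barcodes of the TAK-931 library, against 158 CPM in T-like barcodes. J558-like barcodes also carried it, at 263 CPM (251 to 275) in the TAK-931 and 218 CPM (215 to 220) in the vehicle library. Among vehicle classes neutrophil-like barcodes led with 770 CPM (555 to 1040), followed by endothelial-like barcodes with 497 CPM (466 to 530).

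**Figure D1:**
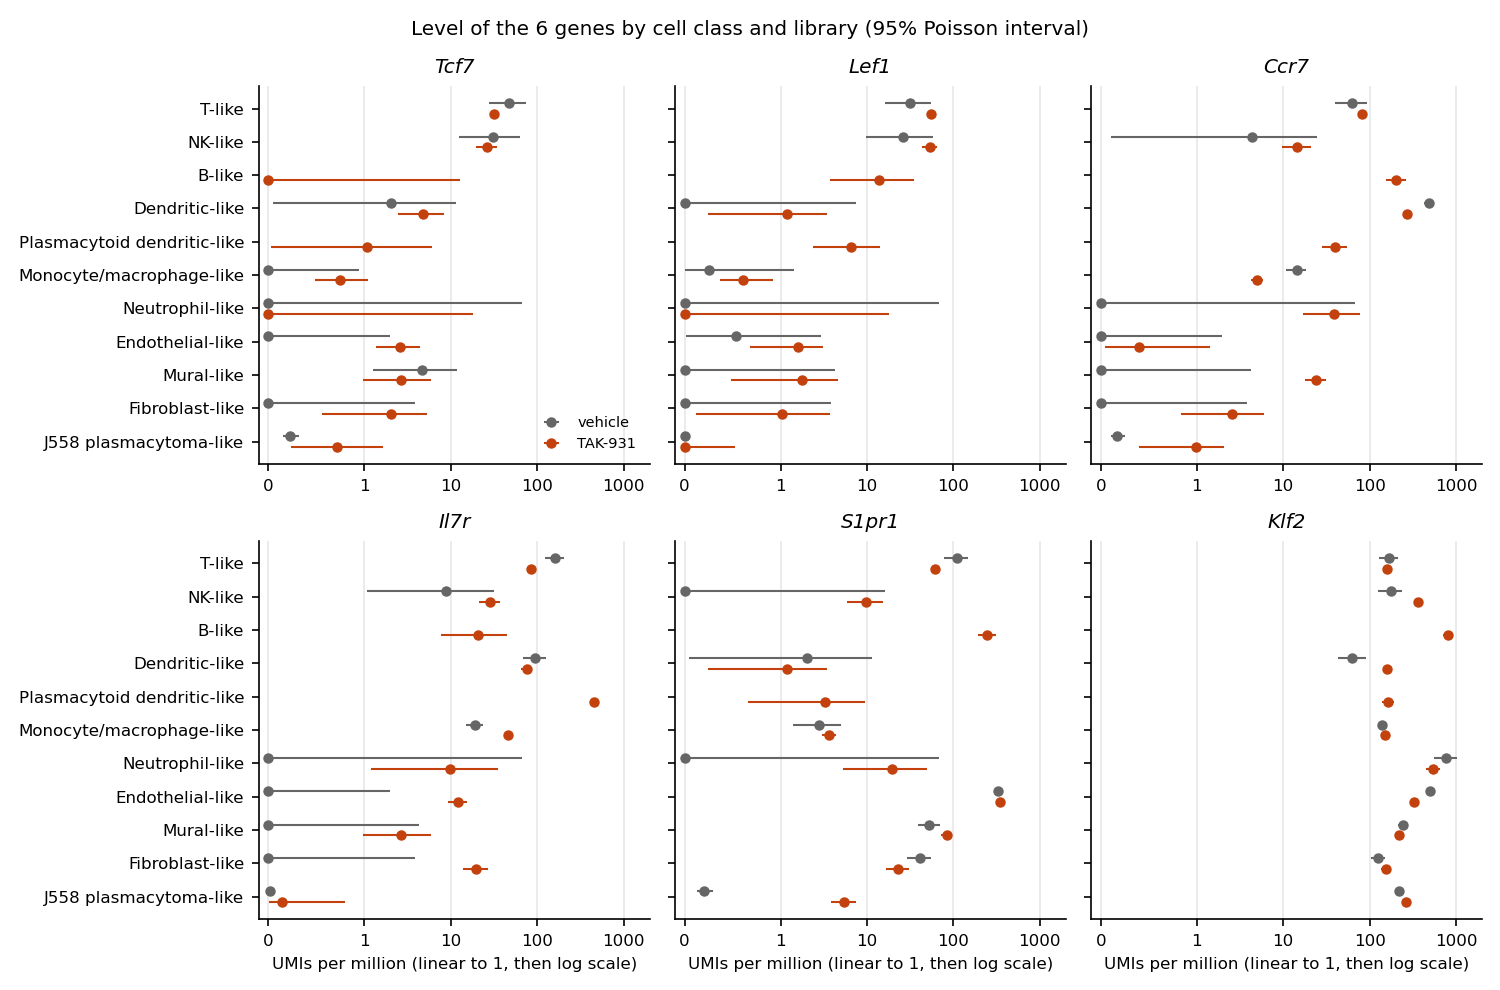
Level of each gene by cell class, in CPM with 95% Poisson intervals, in the vehicle and the TAK-931 library (axis linear up to 1 CPM and logarithmic above). Tcf7 and Lef1 peak in T-like and NK-like barcodes, Ccr7 in dendritic-like, Il7r in plasmacytoid dendritic-like and T-like, S1pr1 in endothelial-like barcodes, and Klf2 is spread over most classes.

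The class holding the most of a gene in the TAK-931 library stayed the same for all 6 genes when only barcodes with over 2000 genes were used, or when the mean of each barcode's own CPM was taken. In the vehicle library the use of barcodes with over 2000 genes put NK-like barcodes first for Tcf7 and Lef1, dendritic-like barcodes first for Il7r and endothelial-like barcodes first for Klf2.

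The genes most like each member over the 20 class and library sums were searched among 15189 genes, as a description. For Tcf7 they were Cd96, a lymphocyte receptor (Pearson's r of log2(CPM + 1) 0.914), Sidt1 (0.912) and Gm29243 (0.909). For Lef1 they were Cd247, the T cell receptor zeta chain (0.971), Gm43065 (0.968) and Zap70, the kinase recruited by it (0.966). For Ccr7 they were H2-Oa, a chaperone of peptide loading on MHC class II (0.94001), Dkkl1 (0.860) and Phf11a (0.857). Il7r was most like Il21r, a cytokine receptor of the same gamma chain family (0.913), Itgb7, the beta chain of a gut homing integrin (0.900), and Gna15, a G protein subunit (0.891). S1pr1 was most like Dock9 (0.877), Trib2 (0.850) and Rapgef4 (0.837). Klf2 had the weakest neighbours, with mt-Atp8 at 0.820, Tob1 at 0.778 and Rps6ka2 at 0.769. Among the members themselves r was 0.790 for Tcf7 and Lef1 and 0.777 for Ccr7 and Il7r, but only 0.293 for S1pr1 and Klf2. The sums share libraries and depth, and several of them belong to the same class.

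T cells were then taken as barcodes with at least 1 UMI of Cd3d, Cd3e or Cd3g, the invariant chains of the T cell receptor complex. This gate held 1595 TAK-931 and 109 vehicle barcodes. The methods of the study keep mouse barcodes with over 2000 genes, and the question here was what T cells below that limit carry. Of the gated TAK-931 barcodes 400 had over 500 and up to 2000 genes (low-gene) (median 4171 UMIs) and 1195 had over 2000 genes (high-gene, median 17221 UMIs). To compare them at equal depth, each barcode was cut by chance to 1000 UMIs, which left out 1 barcode of the low-gene range. The gate let in other cells. Of the high-gene gated barcodes 40.5% lay outside the T-like clusters, 293 of them monocyte/macrophage-like and 35 J558-like, against 9.75% of the low-gene ones, and a marker of another lineage was found in 80.2% and 49.8%. For this reason values within the T-like clusters (361 low-gene and 711 high-gene barcodes, of which 360 and 711 could be used at equal depth) are given beside those of the gate. A marker of another lineage was still found there in 47.6% of low-gene and 68.6% of high-gene barcodes, and its part in the results was not tested beyond the removal of such barcodes below.

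T cells with few genes held more of the programme. In the TAK-931 library 5 of the 6 genes were past the fold (at least 2-fold with an interval that leaves out 1, and at least 10 UMIs over both groups) and all of these were higher in low-gene T cells, where 4.3% of the 8812 genes counted were past it in that direction. Within the T-like clusters the same 5 were past the fold, against 3.87% of 7319 genes counted. The median log2 ratio of the 6 genes was 1.83 in the gate and 1.66 in the T-like clusters, while that of all counted genes was -0.15 and -0.10.

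The egress receptor S1pr1 was at 263 CPM in low-gene against 39.3 CPM in high-gene T cells, a log2 ratio of 2.74 (2.23 to 3.27), and at 283 against 45.01 CPM in the T-like clusters (2.65, 2.07 to 3.28). An S1pr1 UMI among 1000 was found in 72 of the 360 low-gene and 3.94% of the high-gene T-like barcodes. Il7r was at 321 against 61.9 CPM in the gate (2.37, 1.95 to 2.81) and at 353 against 74.5 CPM in the T-like clusters (2.24, 1.77 to 2.73), and its intervals overlapped those of S1pr1. Its shares among T-like barcodes were 23.3% and 5.91%. Ccr7, the lymph node homing receptor, was the exception: it was at 108 against 59.4 CPM in the gate (0.86, 0.28 to 1.43), short of the fold, and at 119 against 85.8 CPM in the T-like clusters, where the interval of the ratio reached below no difference (0.48, -0.12 to 1.06).

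Among the transcription factors Tcf7 was at 100.3 CPM in low-gene against 26.8 CPM in high-gene gated barcodes (log2 ratio 1.90, 1.20 to 2.62) and Lef1 at 97.7 against 35.1 CPM (1.48, 0.81 to 2.14). Both ratios were smaller in the T-like clusters, at 1.31 (0.60 to 2.04) for Tcf7 and 1.06 (0.36 to 1.77) for Lef1. Klf2 was at 551 against 163 CPM in the gate (1.76, 1.47 to 2.04) and at 583 against 145 CPM in the T-like clusters (2.01, 1.66 to 2.36), with a UMI in 33.6% and 11.1% of T-like barcodes. After removal of barcodes with a marker of another lineage, which left 200 low-gene and 237 high-gene gated barcodes, S1pr1 (3.03), Il7r (2.13), Klf2 (1.75) and Tcf7 (1.37) stayed past the fold, while Lef1 (0.32) and Ccr7 (0.24) did not.

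Without cutting to equal depth the log2 ratios of the CPM in the gate ran from 1.03 for Ccr7 to 2.99 for Il7r. The share of all genes past the fold was not counted with all UMIs, nor after the removal of barcodes with a marker of another lineage. No count of members past the fold is therefore given for these settings. Shares of barcodes with a UMI behaved otherwise, since the deeper barcodes have more chances to show one. Lef1 was seen in 24.0% of low-gene and 31.1% of high-gene gated barcodes before the cut, and in 7.77% and 3.18% after it. The background of the shares was read in J558-like barcodes of the same library, which should lack the T cell receptors and factors. At 1000 UMIs none of the 146 J558-like TAK-931 barcodes had a UMI of Tcf7, Lef1, Ccr7, Il7r or S1pr1, which allows a share of up to 2.49% (exact Clopper-Pearson). Their median depth was 41139 UMIs, against 9632 UMIs in T-like barcodes. In monocyte/macrophage-like barcodes (median 13155 UMIs) the shares at 1000 UMIs were 0.0413% for Tcf7, 0.0825% for Lef1, 0.371% for Ccr7, 0.412% for S1pr1 and 4.04% for Il7r. The Il7r share of high-gene T-like barcodes was thus near that of monocytes, which also express the gene, and Klf2 had no class that lacks it.

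The levels were then followed over finer gene ranges of the T-like TAK-931 barcodes. Il7r was at 375, 405 and 306 CPM where up to 1000, up to 1500 and up to 2000 genes were found, and at 132, 65.9 and 19.5 CPM where up to 3000, up to 4000 and over 4000 were. Its level was thus lower in each range above 2000 genes than in the one before. Klf2 was at 438, 709 and 506 CPM below 2000 genes, and at 165, 154 and 117 CPM above it. S1pr1 had its highest levels between 1000 and 1500 genes (385 CPM) and between 1500 and 2000 genes (239 CPM), with no range above 2000 genes over 55.1 CPM, but its level in the lowest range was 62.5 CPM (2 UMIs in 32 barcodes). Tcf7 held 122 CPM between 1000 and 1500 genes and 11.7 CPM above 4000 genes. Ccr7 lay between 62.5 CPM in the lowest range and 144 CPM between 1500 and 2000 genes.

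**Figure D2:**
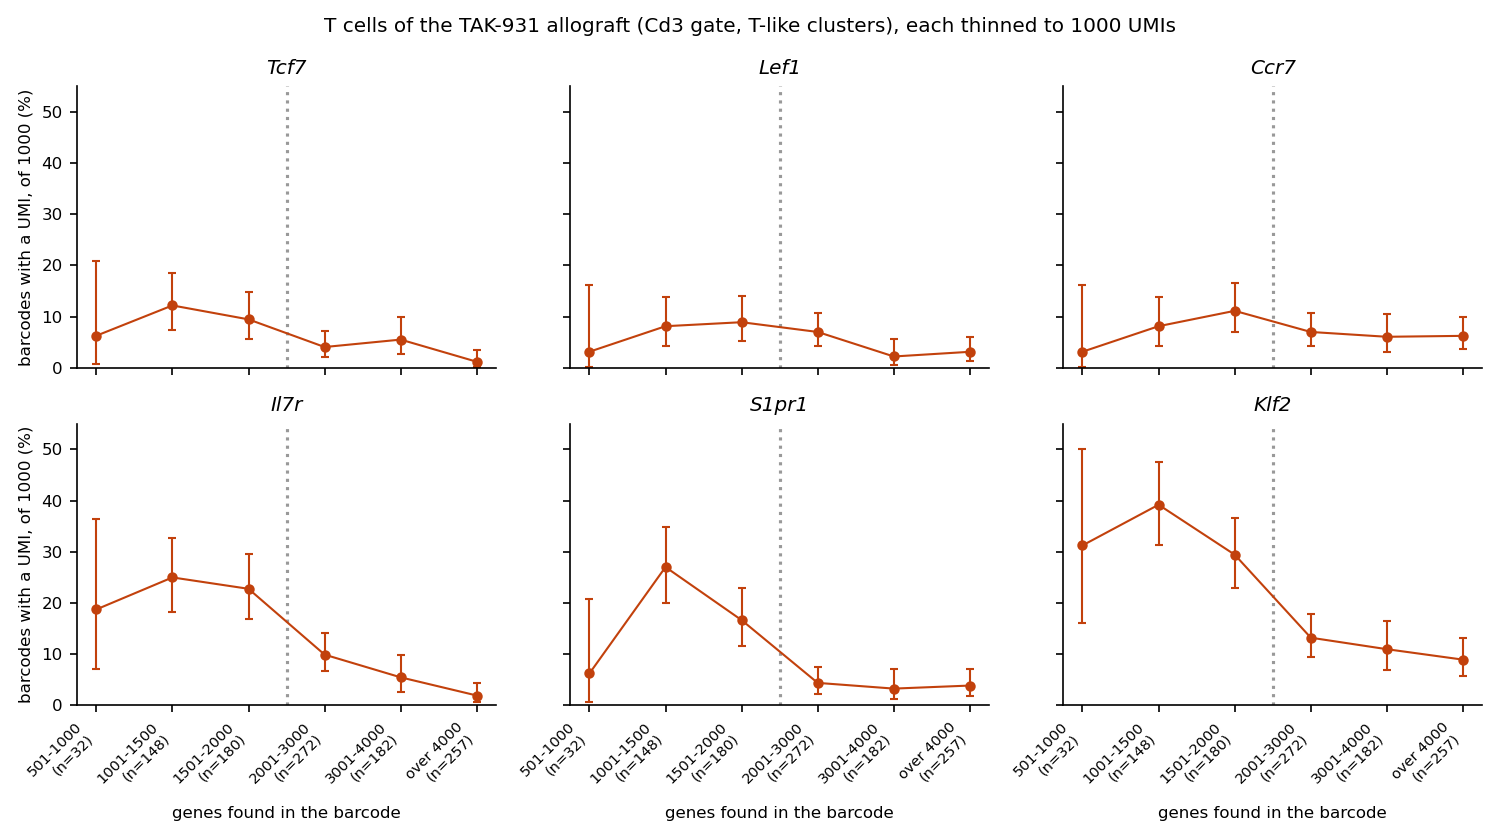
Share of T-like barcodes of the TAK-931 library with a UMI of each gene, after each barcode was cut to 1000 UMIs, against the number of genes found in the barcode, with exact 95% intervals (dotted line at 2000 genes). The shares of Il7r and Klf2 are higher in each range up to 2000 genes than in any above, that of S1pr1 is 6.25% in the lowest range and 27.0% in the next, and that of Ccr7 stays between 3.12% and 11.1%.

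The low-gene T cells were of different kinds, so the comparison was repeated within CD8 and CD4 cells of the T-like clusters. CD8 cells had a UMI of Cd8a or Cd8b1 and none of Cd4, and CD4 cells the reverse. Within the CD8 cells (185 low-gene and 537 high-gene) S1pr1 (log2 ratio 1.93, 0.92 to 2.97), Lef1 (1.31, 0.32 to 2.29) and Klf2 (1.29, 0.82 to 1.77) were past the fold. Tcf7 was at 86.5 against 42.8 CPM with an interval that reached just below 0, Il7r at 75.7 against 41.0 CPM (0.89, -0.19 to 1.92) and Ccr7 at 64.9 against 68.9 CPM (-0.09, -1.16 to 0.88). Within the CD4 cells (66 and 105) Klf2, S1pr1, Tcf7 and Il7r were past the fold. Of these only Il7r reached 10 UMIs in the high-gene barcodes alone, and for the others the filter favours a higher low-gene level. The share of all genes past the fold was not counted within CD8 or CD4 cells, so no count of members is given. Klf2 was at 894 against 57.1 CPM (59 and 6 UMIs, log2 ratio 3.97, 2.76 to 5.47), S1pr1 at 561 against 57.1 CPM (3.29, 2.04 to 4.83), Tcf7 at 167 against 19.0 CPM (11 and 2 UMIs, 3.13, 0.93 to 6.34) and Il7r with 59 UMIs in the 66 and 21 in the 105 barcodes (2.16, 1.42 to 2.95). Lef1 (0.93) and Ccr7 (0.59) were not past the fold there. The CD4 groups differed in kind, since 21 of the 66 low-gene and 91 of the 105 high-gene barcodes had a UMI of Foxp3, the factor of regulatory T cells, and Klf2, S1pr1 and Tcf7 were also lower in Foxp3 cells, as given below. Among the CD4 barcodes without Foxp3 (45 and 14) Klf2 had 50 and 1 UMIs, S1pr1 32 and 1, and Tcf7 10 and 2. The difference between CD8 and CD4 cells in these ratios was not tested.

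The vehicle library had few T cells, 51 low-gene and 58 high-gene gated barcodes, and 29 of the high-gene ones were J558-like. Il7r was found with 24 UMIs (471 CPM) in low-gene and 1 UMI (17.2 CPM) in high-gene barcodes, a log2 ratio of 4.77 (2.15 to 10.1), and S1pr1 with 14 and 5 UMIs (275 and 86.2 CPM, 1.67, 0.12 to 3.50). Il7r and S1pr1 were past the fold, but they reached the 10 UMIs needed only with the low-gene barcodes, a condition that favours a higher level there. No count over the 6 genes is therefore given. Of the 1627 genes counted 14.6% were past the fold in that direction. Klf2 was at 490 against 259 CPM (0.92, -0.06 to 1.95), and Tcf7, Lef1 and Ccr7 had no more than 3 UMIs each at 1000 UMIs per barcode. In the T-like clusters, which held 42 low-gene and 14 high-gene barcodes, Klf2 had 21 UMIs in the low-gene and none in the high-gene barcodes, at least 2.33-fold higher with a floor of 3 counts for the group. The level of Il7r there, with all UMIs, was 332 against 54.8 CPM and that of Klf2 386 against 29.5 CPM.

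Other genes of the T cell states were counted in fixed lists, in the T-like clusters of the TAK-931 library and as low-gene against high-gene barcodes. Of the 20 genes of naive and memory T cells other than the members, 14 had at least 10 UMIs, 3 were past the fold higher and 2 lower, with a median log2 ratio of 0.56. Of all genes counted 3.87% were past the fold as higher and 7.21% as lower, the shares against which these counts are read. Klf3, a relative of Klf2, was at 136 against 16.9 CPM (3.01, 2.08 to 4.06), and S1pr4, another sphingosine 1-phosphate receptor, at 128 against 49.2 CPM (1.38, 0.71 to 2.05). Both also stand in the list of relatives of the members. Cxcr3, an inflammatory chemokine receptor (0.94), and Ly6c2 (-0.75) did not pass. The 6 genes of dividing cells counted were all past the fold lower in low-gene barcodes, with a median of -2.57, among them Birc5 (-2.98), Mki67 (-2.67), Top2a (-2.06) and Stmn1 (-1.53). Of the 7 genes of exhausted T cells 4 were past the fold and all of these were lower, namely the inhibitory receptors Havcr2 (-3.36), Pdcd1 (-1.54) and Lag3 (-1.09) and the ectoenzyme Entpd1 (-1.39).

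Effector and residency genes had medians near 0. Of 12 effector genes 3 were past the fold higher and 2 lower in low-gene barcodes (median -0.08), with the granzyme Gzma at 1378 against 129 CPM (3.41, 3.09 to 3.75) and the chemokine Ccl5 at 1.05, but the pore protein Prf1 at -1.26 and the regulator Id2 at -1.04. Of the 10 genes of retention and residency 8 were counted (median 0.03). In the high-gene barcodes alone 7 of them reached 10 UMIs, and of these 2 were past the fold higher and none lower. Cd69, whose product removes S1PR1 from the cell surface, was at 314 against 109.7 CPM (1.52, 1.09 to 1.95), in the same direction as S1pr1, and the G protein regulator Rgs1 was at 1533 against 712 CPM (1.11, 0.93 to 1.28). Among relatives of the members 6 of 13 were counted, with 3 higher and 1 lower (median 1.08). Among ligands and their makers 4 of 11 were counted (median 0.64). Of the 3 that reached 10 UMIs in the high-gene barcodes alone, none was past the fold as higher and 1 as lower. Of the 18 genes of mature dendritic cells 10 were counted in these T cells (median 0.31). None of the 8 that reached 10 UMIs in the high-gene barcodes alone was past the fold.

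In the gate itself the counts were 7 higher and 5 lower of 17 for the naive and memory list, 3 and 1 of 8 for retention, 4 and 2 of 12 for effector, 0 and 2 of 7 for exhaustion, 0 and 6 of 6 for dividing, 0 and 1 of 5 for ligands, 3 and 3 of 9 for relatives, and 0 and 1 of 12 for mature dendritic genes. Of all 8812 genes counted there 4.3% were higher and 11.5% lower.

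CD8 and CD4 cells were compared next. In the gate there were 797 CD8 and 204 CD4 barcodes of the TAK-931 library, and 3 of the 6 genes were past the fold, all lower in CD8 cells, against 4.37% of 7363 genes counted in that direction. The same 3 were past the fold in the T-like clusters (722 CD8 cells with a median of 11719 UMIs and 171 CD4 cells with a median of 8481 UMIs), against 4.76% of 6848 genes counted. They were the 3 receptors. Il7r was at 50.2 CPM in CD8 against 402 CPM in CD4 barcodes of the gate (log2 ratio -3.00, -3.58 to -2.44) and at 49.9 against 468 CPM in the T-like clusters (-3.23, -3.84 to -2.65). At 1000 UMIs 4.02% of CD8 and 31.0% of CD4 T-like barcodes had an Il7r UMI, so the CD8 share was that of monocyte/macrophage-like barcodes. S1pr1 was at 51.4 against 225 CPM in the gate (-2.13, -2.78 to -1.49) and Ccr7 at 65.2 against 176 CPM (-1.44, -2.08 to -0.78), with T-like shares of 4.43% and 17.0% for S1pr1 and 4.85% and 15.2% for Ccr7.

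The transcription factors were not past the fold, although their intervals overlapped that of Ccr7. Tcf7 was at 48.9 against 68.6 CPM in the gate (-0.49, -1.40 to 0.51), Lef1 at 50.2 against 53.9 CPM (-0.10, -1.09 to 1.01) and Klf2 at 216 against 343 CPM (-0.67, -1.08 to -0.25). Unthinned log2 ratios in the gate were -0.44 for Tcf7, 0.34 for Lef1, -0.17 for Klf2, -1.16 for Ccr7, -2.48 for Il7r and -2.05 for S1pr1. Of the 12 effector genes 6 reached 10 UMIs in CD4 T-like barcodes alone, and of these 3 were past the fold higher in CD8 T-like barcodes and 1 lower, where 3.5% of all genes counted were higher and 4.76% lower. The higher ones were Gzmb (2.64), Ccl5 (2.36) and Nkg7 (1.62), and the lower one Klrg1 (-2.08). The other 6 were counted only with the UMIs of the CD8 barcodes, among them Gzma with 523 and 7 UMIs and Gzmk with 97 and 3. In the naive and memory list Ly6c2 had 144 and 3 UMIs and Cxcr3 was lower (-2.18). In the residency list Cxcr6 was at 2.31 and Rgs2 at -1.25, and in the exhaustion list Ctla4 was at -2.45 and Havcr2 at 1.09.

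CD8 and CD4 cells were also compared within each gene range, and the difference between the ranges was not tested. Among low-gene T-like barcodes (185 CD8 and 66 CD4) Il7r was at 75.7 against 894 CPM (-3.56, -4.52 to -2.70), and a UMI was found in 4.86% and 56.1% of barcodes. S1pr1 was at 114 against 561 CPM (-2.30, -3.15 to -1.49), Ccr7 at 64.9 against 258 CPM (-1.99, -3.19 to -0.84) and Klf2 at 384 against 894 CPM (-1.22, -1.74 to -0.70). Among those with over 2000 genes (537 and 105) Il7r had 22 UMIs in CD8 and 21 in CD4 cells (-2.29) and Ccr7 was at 68.9 against 171 CPM (-1.31, -2.16 to -0.42), but S1pr1 at 29.8 against 57.1 CPM (-0.94, -2.37 to 0.70) was short of the fold, and Klf2 was higher in CD8 cells, at 156 against 57.1 CPM (1.45, 0.27 to 2.94). The Klf2 level of the high-gene CD4 cells rested on 6 UMIs, and 91 of these 105 barcodes had a Foxp3 UMI, against 21 of the 66 low-gene ones. Against CD4 cells without Foxp3 the Klf2 ratio was -1.53 (-2.08 to -0.98) in low-gene barcodes and 1.13 (-1.39 to 6.45) in high-gene ones, the last on 1 UMI in 14 CD4 barcodes. In the gate the Klf2 log2 ratios were -1.20 and 1.03 for the low-gene and the high-gene barcodes.

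**Figure D3:**
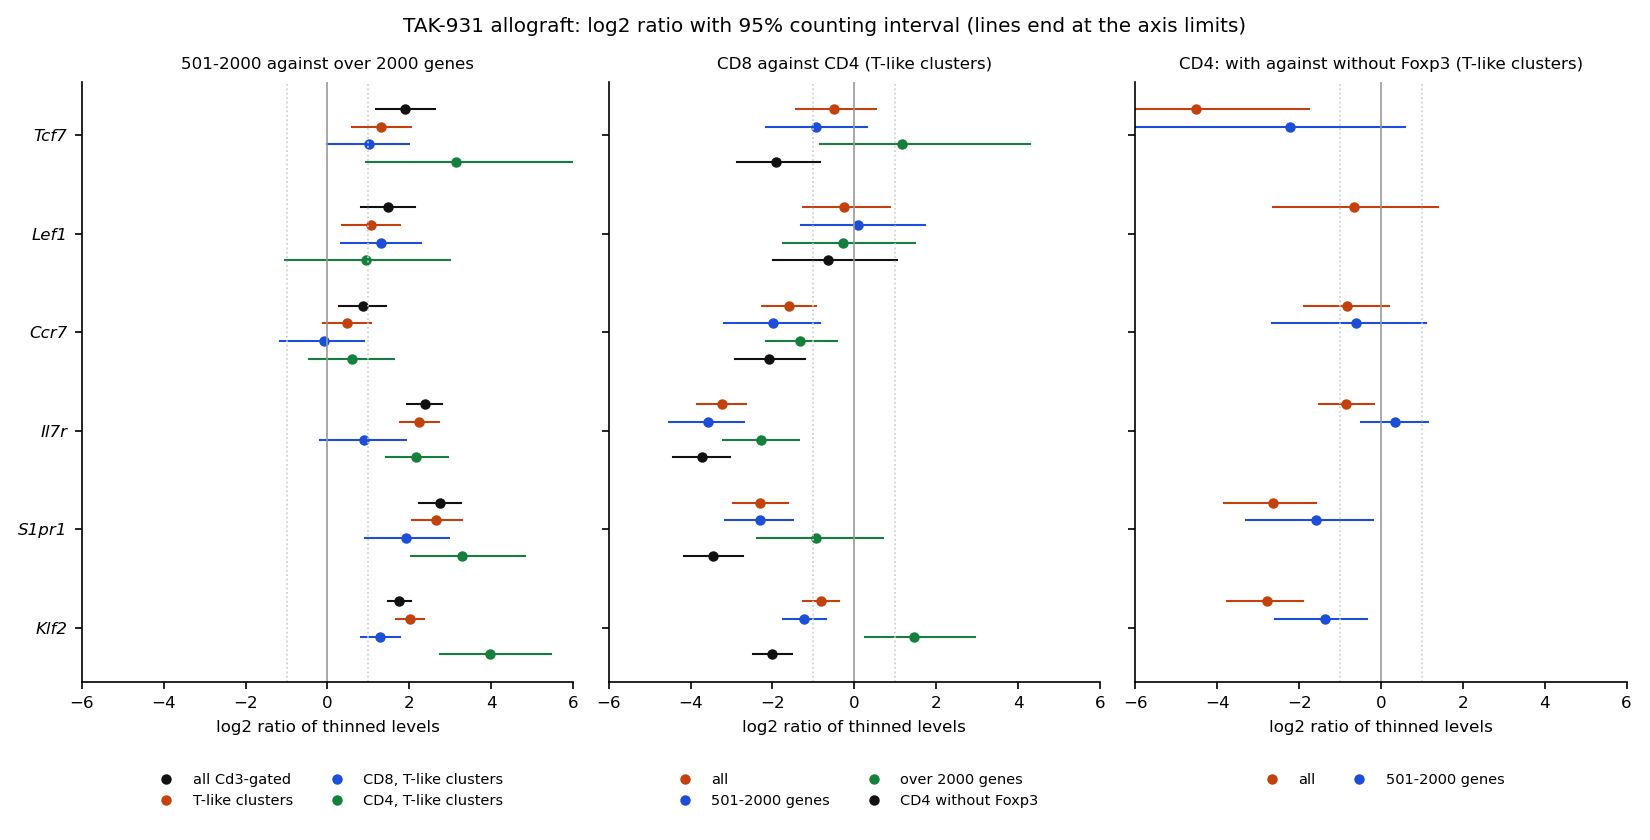
Log2 ratios of thinned levels of the 6 genes in the TAK-931 library, with 95% counting intervals and dotted lines at 2-fold, for low-gene against high-gene T cells (left), CD8 against CD4 cells (middle) and CD4 cells with against without a UMI of Foxp3 (right). Points of at least 10 UMIs are drawn. For all gated barcodes the 5 genes other than Ccr7 lie past 2-fold on the left, Il7r, S1pr1 and Ccr7 lie left of 0 (lower in CD8) in the middle panel, and Klf2 there lies left of 0 in low-gene and right of 0 in high-gene barcodes.

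CD4 cells were divided by Foxp3. In the gate 118 CD4 barcodes had a Foxp3 UMI and 86 had none. S1pr1 and Klf2 were past the fold as lower in the Foxp3 barcodes, where 4.77% of 2980 genes counted were. The same held in the T-like clusters (112 and 59 barcodes), against 2.54% of 2519 genes counted. Tcf7 was also past the fold as lower, but it reached 10 UMIs only with the barcodes without Foxp3, a condition that favours this direction. It was found with 1 UMI in the 118 and 13 UMIs in the 86 gated barcodes (log2 ratio -4.16, -9.57 to -1.42). S1pr1 was at 84.7 against 419 CPM (-2.30, -3.48 to -1.26) and Klf2 at 127 against 640 CPM (-2.33, -3.26 to -1.49). Lef1 (-0.19), Ccr7 (-0.46) and Il7r (-0.39) had intervals on both sides of 0. With all UMIs the log2 ratios in the gate were -2.76 for Tcf7, -1.53 for Klf2 and -0.78 for S1pr1, so that S1pr1 was then short of the fold. In the T-like clusters with all UMIs S1pr1 (-1.99), Ccr7 (-1.53) and Il7r (-1.64) were past it as well. The share of all genes past the fold was not counted with all UMIs.

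Foxp3 barcodes were also the deeper ones, which a UMI of Foxp3 itself favours. Of the 112 in the T-like clusters 91 had over 2000 genes (median of all 11528 UMIs), against 14 of the 59 without Foxp3 (5200 UMIs). Among low-gene barcodes (21 and 45) S1pr1 was at 238 against 711 CPM (-1.58, -3.30 to -0.21) and Klf2 at 429 against 1111 CPM (-1.37, -2.58 to -0.34), both past the fold, while Tcf7 had 1 and 10 UMIs (-2.22, -7.66 to 0.59) and Il7r stood at 1048 against 822 CPM (0.35, -0.48 to 1.15). Above 2000 genes (91 and 14) none of the 6 was past the fold. Of the fixed lists 4 of 6 effector, 4 of 5 exhaustion and 5 of 8 naive and memory genes counted reached 10 UMIs only with the Foxp3 barcodes, so no count is given. Among genes that reached it without them, Id2 (2.03), Ccl5 (302 and 41 UMIs), the inhibitory receptor gene Ctla4 (1.59) and Cd27 (1.49) were past the fold higher in Foxp3 barcodes, and Satb1 (-1.62) and Klf3 (-2.25) lower.

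Against the 59 CD4 barcodes without Foxp3, CD8 T-like barcodes were past the fold as lower in 5 of the 6 genes, against 3.2% of 6466 genes counted. Tcf7 was at 54.0 against 203 CPM (-1.91, -2.88 to -0.84), Klf2 at 215 against 864 CPM (-2.01, -2.47 to -1.52), Ccr7 at 67.9 against 288 CPM (-2.09), S1pr1 at 51.3 against 559 CPM (-3.45) and Il7r at 49.9 against 661 CPM (-3.73, -4.42 to -3.04). Lef1 was at 54.0 against 84.7 CPM (-0.65, -1.99 to 1.05). The CD4 cells without Foxp3 therefore held the highest levels of 5 of the 6 genes among the T cell groups with all UMIs as well, with Il7r at 603, S1pr1 at 449, Ccr7 at 329, Tcf7 at 194 and Klf2 at 573 CPM, the last not told apart from the next group. T-like barcodes with a UMI of neither Cd4 nor Cd8 (137) came next, with Il7r at 435, Klf2 at 529, S1pr1 at 281, Ccr7 at 138 and Tcf7 at 101 CPM, and led for Lef1 at 129 CPM. The groups differed in gene range. Low-gene barcodes were 45 of the 59 CD4 barcodes without Foxp3 and 106 of these 137, against 185 of the 722 CD8 and 21 of the 112 Foxp3 barcodes. The part of gene range in these levels and ratios was not tested. Of these 137 barcodes 89.1% had a Cd3e UMI, 62.0% a Trac UMI, 60.6% a Rora UMI and 9.49% a Trdc UMI, genes looked at after the levels of the members had been seen.

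The number of the 6 genes found in the same barcode was counted. At 1000 UMIs 14.6% (12.5 to 16.8) of the 1071 T-like TAK-931 barcodes held at least 2 of the 6 genes, and 10.5% (9.07 to 12.2) of the 1594 gated ones. It was 28.9% (24.3 to 33.9) of low-gene and 7.31% (5.51 to 9.48) of high-gene T-like barcodes, and 8.17% of CD8 and 24.6% of CD4 ones. If the genes fell on barcodes independently, the shares of the single genes would give 10.7% of all T-like barcodes, 27.9% of low-gene, 4.27% of high-gene, 4.73% of CD8 and 24.6% of CD4 ones. At 1000 UMIs the low-gene and CD4 shares were within counting error of that value and the others above it. At 2000 UMIs none was told apart from it, with 23.2% (20.7 to 25.9) of all T-like barcodes against 22.0%, 12.7% (10.3 to 15.3) of high-gene against 10.998% and 14.03% (11.6 to 16.8) of CD8 ones against 11.9%. Single pairs are given at 1000 UMIs. Of T-like barcodes with S1pr1 51.0% also had Klf2, against 15.3% of those without, a difference of 35.7 points (25.7 to 45.5), and 40.6 points (32.1 to 48.5) at 2000 UMIs. The difference was found within low-gene (55.6% against 28.1%, 27.4 points, 14.7 to 39.4) and within high-gene barcodes (39.3% against 9.96%, 29.3 points, 13.4 to 47.8). S1pr1 also went with Il7r (35.0% against 9.37%, 25.6 points, 16.8 to 35.5), although not beyond counting error within high-gene barcodes (5.00 points, -2.28 to 21.6), and barcodes with Tcf7 more often had S1pr1 (27.9% against 8.22%, 19.7 points, 9.79 to 32.1). Lef1 and Ccr7 were an exception: 8.33% of barcodes with Lef1 and 7.32% of those without had Ccr7, a difference of 1.01 points (-4.03 to 10.9).

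**Figure D4:**
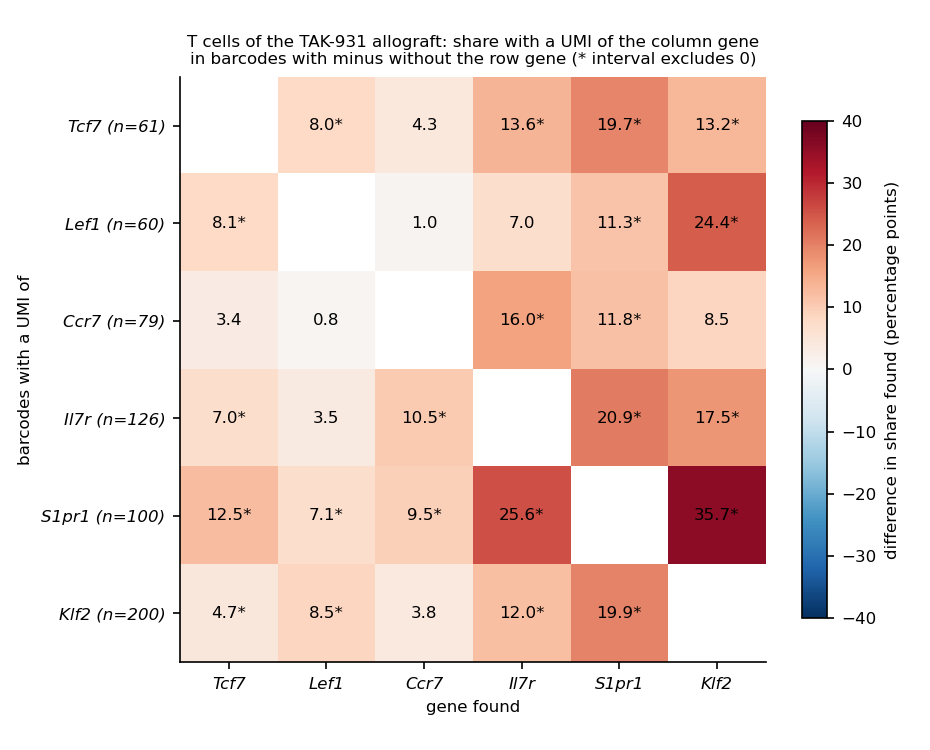
Difference in the share of T-like TAK-931 barcodes with the gene of the column between barcodes with and without the gene of the row, in percentage points at 1000 UMIs per barcode (an asterisk marks an interval that leaves out 0). S1pr1 with Klf2 gives the highest difference, 35.7 points, and Lef1 with Ccr7 differs by 1.01 points.

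Barcodes with markers of activation held less of some members. Of T-like barcodes with a UMI of the granzyme Gzmb (288, at 1000 UMIs) 2.08% had Ccr7, against 9.32% of the 783 without (-7.24 points, -9.75 to -4.22), and 4.51% against 14.4% had Il7r (-9.92 points, -13.1 to -6.10). Of the 288 barcodes 258 were CD8. Within CD8 cells the Ccr7 difference was -4.53 points (1.94% against 6.47%, -7.37 to -1.37) and the Il7r difference -3.84 points (1.55% against 5.39%, -6.46 to -0.92). Within low-gene CD8 cells both were -4.81 points (-10.7 to 2.94), and within high-gene ones -4.44 points (-7.81 to -0.68) for Ccr7 and -3.48 points (-6.51 to -0.070) for Il7r. Of barcodes with the inhibitory receptor gene Pdcd1 (197) 2.03% had S1pr1 and 1.02% Tcf7, against 10.98% and 6.75% of those without. Of the 162 CD8 barcodes among them 142 were high-gene. Within high-gene CD8 cells the S1pr1 difference was -1.88 points (-4.36 to 1.95) and the Tcf7 difference -3.60 points (-6.15 to -0.0429), and within low-gene ones, with 20 Pdcd1 barcodes, both intervals held 0. Barcodes with Cd69 (137) had S1pr1 more often, 20.4% against 7.71% (12.7 points, 6.53 to 20.4), and also Klf2 (29.9% against 17.0%). Within CD8 cells the intervals of both Cd69 differences held 0. Barcodes with Ctla4 (198) had Il7r more often, 18.2% against 10.3% (7.87 points, 2.64 to 14.1), and Klf2 less often, 12.6% against 20.05%. Within CD8 cells, which held 79 of these 198 barcodes, the Il7r share was 1.27% with and 4.35% without Ctla4 (-3.09 points, -5.23 to 2.63), and the intervals of both Ctla4 differences held 0.

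T cells of the TAK-931 and the vehicle library were set side by side. In the gate (1594 and 109 barcodes at equal depth) none of the 6 was past the fold, where 4.11% of 9004 genes counted were past it as lower. In the T-like clusters (1071 and 56) Il7r was at 168 CPM in the TAK-931 and 446 CPM in the vehicle library (log2 ratio -1.41, -2.02 to -0.74) and S1pr1 at 125 against 286 CPM (-1.19, -1.94 to -0.34), both past the fold as lower, with 1.53% of 7432 genes counted. Klf2 was at 292 against 375 CPM (-0.36, -0.997 to 0.35), and Tcf7, Lef1 and Ccr7 had no more than 3 UMIs in the vehicle barcodes. The 2 libraries differed in the make-up of their T cells. Low-gene barcodes were 361 of 1072 T-like barcodes in the TAK-931 and 42 of 56 in the vehicle library. Barcodes with a UMI of neither Cd4 nor Cd8 were 137 of 1072 and 26 of 56, and in the vehicle library they held 49 of the 62 Il7r UMIs. With all UMIs Il7r was at 435 CPM (389 to 485) in these barcodes of the TAK-931 and 546 CPM (404 to 721) in those of the vehicle library, and at 35.2 CPM in CD8 cells of both, where the vehicle level rested on 6 UMIs. The part of this make-up in the lower Il7r level was not tested. Among low-gene T-like barcodes alone Il7r was at 353 against 571 CPM (-0.70), S1pr1 at 283 against 333 CPM (-0.23) and Klf2 had 210 UMIs in 360 and 21 in 42 barcodes (0.22), none of them past the fold. With all UMIs none of the 6 was past the fold in the T-like clusters, while Tcf7 (1.19), Lef1 (2.55), Ccr7 (2.43) and Il7r (1.30) were so in the gate, as higher in the TAK-931 library. The share of all genes past the fold was not counted with all UMIs here either. J558-like barcodes made up 29 of the 109 gated vehicle barcodes.

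Ccr7 was then followed within the dendritic-like barcodes, since mature dendritic cells use it to travel to lymph nodes. No cluster was named mature dendritic, so those of the TAK-931 library were divided by a UMI of Fscn1, the actin-bundling protein fascin of mature dendritic cells. At 1000 UMIs each the 14 barcodes with Fscn1 held 20 Ccr7 UMIs (1429 CPM, 873 to 2206) and the 116 without it 14 UMIs (121 CPM, 66.0 to 202), a log2 ratio of 3.57 (2.51 to 4.66), where 7.21% of 1817 genes counted were past the fold as higher. A Ccr7 UMI was found in 42.9% and 8.62% of them. With all UMIs the levels were 1709 and 141 CPM (3.60) and the shares 78.6% and 45.7%, at median depths of 13935 and 16621 UMIs. The barcodes with Fscn1 were uneven: they held from 0 to 96 Ccr7 UMIs each, and those with 1 Fscn1 UMI held no more than 9. A Cd3 UMI was found in 2 of the 14 and 14 of the 116 barcodes, and without these the log2 ratio at equal depth was 4.01. In the vehicle library the 6 dendritic-like barcodes with Fscn1 all had a Ccr7 UMI (1959 CPM), and the 37 without Fscn1 were at 209 CPM.

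Fscn1 barcodes carried other genes of mature dendritic cells. Of the list of 18 genes 10 reached the 10 UMIs needed, 5 of them (Fscn1, Il12b, Socs2, Il15ra and Cd80) only with the UMIs of the Fscn1 barcodes, a condition that favours a higher level there, and Fscn1 itself chose the barcodes. No count over the list is therefore given. Il12b, the p40 subunit of IL-12, had 42 UMIs in the 14 and 1 UMI in the 116 barcodes at equal depth (8.44, 5.89 to 13.8), and Socs2, a brake on cytokine signalling, 12 and 1 UMIs (6.64, 3.88 to 12.1). Of 695 Il12b UMIs in the Fscn1 barcodes 484 were in 1 barcode. Cd40, a costimulatory receptor, was past the fold (1.94) on 6 and 13 UMIs, with 257 against 76.1 CPM when all UMIs were used. Of the ligands of CD28, Cd86 was at 0.19 at equal depth, and Cd80 was at 2.57 on 5 and 7 UMIs but at 98.1 against 59.2 CPM with all UMIs, short of the fold. Among the other members Il7r was at 248 CPM (185 to 324) with and 60.1 CPM (50.4 to 70.9) without Fscn1, all UMIs used, Klf2 at 107 and 162 CPM, and Tcf7, Lef1 and S1pr1 at no more than 51.4 CPM in either.

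**Figure D5:**
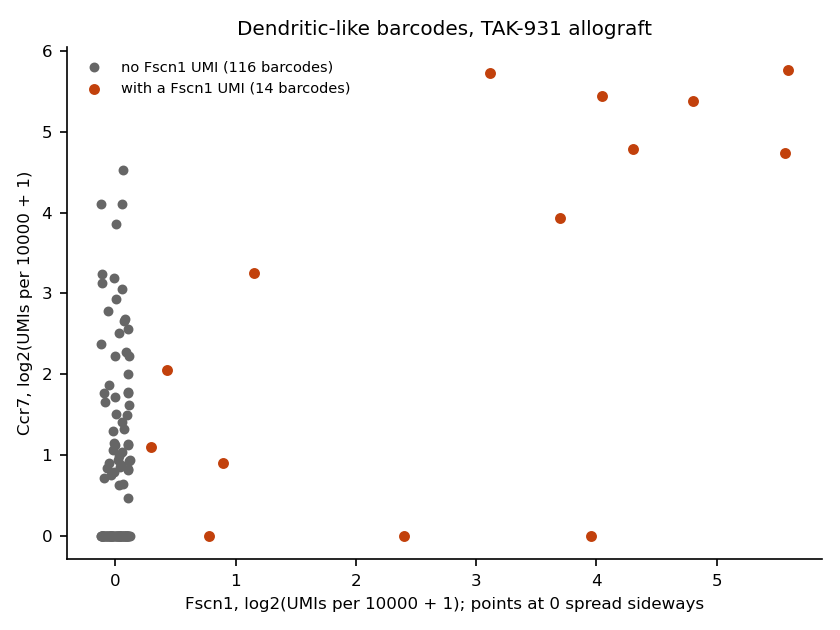
Ccr7 against Fscn1 in each dendritic-like barcode of the TAK-931 library, both on a log2 scale of UMIs scaled to the same total plus 1. Among the 14 barcodes with a UMI of Fscn1, 11 carry Ccr7, and among the 116 without Fscn1, 53 do, mostly at lower levels.

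The partners of the receptors were sought in the same tumours. Ccl19, a ligand of CCR7, was found in mural-like barcodes of the TAK-931 library at 38.0 CPM (30.4 to 47.0) and in fibroblast-like ones at 7.2 CPM (3.9 to 12.1). The vehicle library held no Ccl19 UMI in either class, which allows up to 4.24 CPM in mural-like and 3.84 CPM in fibroblast-like barcodes, and no UMI of Ccl21a, the other ligand, was found in any class. Spns2, the exporter of sphingosine 1-phosphate, was at 47.2 CPM (41.4 to 53.5) in endothelial-like barcodes of the TAK-931 and 58.2 CPM (47.8 to 70.2) in those of the vehicle library. Plpp3, a phosphatase that clears it, was at 192 CPM (180 to 204) and 488 CPM (457 to 521) in the same barcodes, and at 460 CPM (430 to 491) and 190 CPM (164 to 220) in fibroblast-like ones. Il7 itself was at no more than 1.15 CPM in any class, and that level was 1 UMI.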

How the data were processed

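Single-cell suspensions from 1 vehicle and 1 TAK-931 allograft library (10x 3′ v3.1) were counted by the authors with Cell Ranger 6.0.0 on mm10 per the submitters' processing notes, although the methods text names hg38. The deposited matrices hold raw UMI counts per gene for the filtered barcodes of Cell Ranger, not normalized and before the cell filter that the study applied later. The vehicle matrix held 144767193 UMIs and the TAK-931 matrix 77369283. Of the vehicle barcodes 315 had 500 genes or fewer and 87 others at least 15% mitochondrial UMIs, and 1329 and 594 of the TAK-931 barcodes. Low levels are limited by the few UMIs behind them, which the intervals show.

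Kept barcodes were clustered with scanpy 1.11.5 and leidenalg 0.10.2 (resolution 0.5, 20 clusters, without the 6 genes) and classes named from marker lists. Counts were cut to 1000 UMIs per barcode with random seed 0, summed per group and given as CPM with exact Poisson intervals, shares with exact Clopper-Pearson and Newcombe intervals, and ratios with exact conditional binomial intervals (scipy 1.17.1, numpy 2.4.6, pandas 2.3.3, Python 3.11.15, matplotlib 3.10.9). Where a sum was 0, 0.5 was added to both sums of a ratio. Genes outside the members were named by rule: the 3 most alike per member (at least 50 UMIs over all sums) and up to 4 per list with the largest absolute log2 ratio among those with at least 50 UMIs. Exceptions, chosen after their values were seen, were genes of the Fscn1 barcodes, of the barcodes with neither Cd4 nor Cd8, of the marker splits and of the partners. The members and lists were chosen with earlier results of these data known. The comparisons share T cells and are not independent of each other. The procedure was tested on simulated data. Alternatives were other depths, gates, clusters, mitochondrial and gene limits, and totals without ribosomal and mitochondrial genes.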

Additional observations from a re-analysis of the deposited data

Results flagged for a closer look

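T cells removed by the mitochondrial limit also carried the genes, in barcodes that no comparison above used. In the TAK-931 library 91 Cd3-gated barcodes had at least 15% mitochondrial UMIs (median 20.9%, median depth 3567 UMIs), and the vehicle library had none. Their levels were 24.8 CPM for Tcf7 (12.4 to 44.4), 49.6 CPM for Lef1 (31.1 to 75.1), 9.02 CPM for Ccr7 (2.46 to 23.1), 106 CPM for Il7r (77.9 to 141), 101 CPM for S1pr1 (74.0 to 136) and 185 CPM for Klf2 (147 to 230).

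Klf2 pointed in opposite directions in the gene ranges. In T-like clusters of the TAK-931 library its log2 ratio of CD8 against CD4 cells was -1.22 in low-gene barcodes (up to 2000 genes) and 1.45 in high-gene ones at equal depth, and -1.11 and 0.53 with all UMIs. A Foxp3 UMI was found in 21 of the 66 low-gene and 91 of the 105 high-gene CD4 barcodes, and Klf2 was lower in Foxp3 barcodes (125 against 864 CPM at equal depth). Against CD4 cells without Foxp3 the ratios were -1.53 (-2.08 to -0.98) and 1.13 (-1.39 to 6.45), the last on 1 Klf2 UMI in 14 CD4 barcodes. The difference between the ranges was not tested.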

How the results depend on the processing

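The median log2 ratio was taken over those of the 6 genes with at least 10 UMIs, which could differ between alternatives. It kept its sign under every alternative that gave a value in the comparisons of gene ranges and of CD8 and CD4 cells. Of 92 alternative values of the main comparisons 78 stayed within the spread given by counting and 14 moved. Low-gene against high-gene T cells of the TAK-931 library (1.83) moved within CD8 (1.21) and within CD4 cells (2.68), and in the T-like clusters within CD8 (1.15), within CD4 (2.64) and within CD4 with all UMIs (2.44). In the vehicle library the main value (1.67) was the median of Il7r, S1pr1 and Klf2 only. It moved to 4.29 with all UMIs and to 4.38 without ribosomal and mitochondrial genes in the total. CD8 against CD4 cells (-1.05) moved in the T-like clusters against CD4 cells without Foxp3 (-2.05, and -1.84 in low-gene barcodes). Foxp3 against other CD4 cells (-1.38) moved to -0.17 above 2000 genes, and the TAK-931 against the vehicle library (0.19) to 1.75 above 2000 genes. The share of T cells with at least 2 of the genes (10.5%) was 18.2% at 2000 UMIs, 14.6% in the T-like clusters and 23.2% in those at 2000 UMIs. The Ccr7 ratio in dendritic-like barcodes stayed between 3.29 and 4.01 where at least 10 UMIs were counted. With dendritic cells classed barcode by barcode, 10 barcodes had Fscn1 and held no Ccr7 UMI at equal depth (0 to 369 CPM). The 6 without Fscn1 held 2 UMIs. The level with Fscn1 thus lay below the main one of 1429 CPM (873 to 2206). Of 411 values of single genes 106 moved. The alternatives within the T-like clusters and without Foxp3 were partly chosen after seeing the data. Too few UMIs remained for values within vehicle CD8 or CD4 cells, for vehicle genes of at least 50 UMIs, and for a Ccr7 ratio in dendritic cells classed barcode by barcode. No paired analysis was possible because each group is 1 library, which also left no replicate to leave out. The cause of these moves was not tested.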
